A study of Homo sapiens with 24 samples.

Results

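The 48 genes described here encode subunits and initiation factors of RNA polymerase I and the nucleolar proteins that modify, cut and fold ribosomal RNA. They were picked by gene symbol, and all 48 were found among the 25680 genes of each table, 47 under the symbol given and UTP4 under its older symbol CIRH1A. By role, 7 act in polymerase I transcription, 8 are proteins of the small nucleolar RNA particles, 4 are nucleolar phosphoproteins and chaperones, 12 assemble the small ribosomal subunit and 17 the large one. Bulk RNA of 3 established human acute myeloid leukaemia lines was sequenced in 24 libraries, forming 8 groups of 3. MV411 cells received MI-503 at 2.5 µM over 3 days, AC220 at 3 nM over 24 h, the pair of drugs at those doses and times, or DMSO for a time that the labels do not give. MOLM13 and OCI-AML3 cells were kept for 4 days in 2.5 µM MI-503 or in DMSO. MI-503 blocks the binding of menin to MLL (KMT2A) proteins, and AC220 (quizartinib) inhibits the receptor kinase FLT3. MV411 and MOLM13 hold an MLL fusion and a FLT3 internal tandem duplication, whereas OCI-AML3 lacks the fusion and has a mutated NPM1 gene. Each line stands for 1 leukaemia, and the triplicates, called biological in the labels, carry no description of how their cultures were separated.

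Ribosomes are built in the nucleolus. Polymerase I copies the ribosomal DNA into a long precursor, box C/D and box H/ACA particles guide its methylation and pseudouridylation, and large protein assemblies then cut and fold it into the rRNAs of the small and the large subunit. The genes for these factors are known targets of the growth regulator MYC, and their RNA levels are usually high in cycling leukaemia cells.

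Reads assigned to genes numbered 23168887 to 26596469 per library in MV411, 23281330 to 27240357 in MOLM13 and 44364964 to 72994481 in OCI-AML3. Levels are given as normalised reads, the deposited values scaled by the median of ratios over genes, so every change is relative to the median gene. They ranged from 203 to 114891 normalised reads over the members and libraries. The MV411 values already had this scale, whereas on the deposited scale, which is named for the added spike-in RNA, the median of all genes with MI-503 against DMSO lay at -0.54 (log2) in MOLM13 and at -0.16 in OCI-AML3. Counts on that scale stand beside the main ones. Although all libraries are labelled as polyA RNA, 5 structural RNAs without a poly(A) tail (RPPH1, RMRP, TERC, SCARNA2 and VTRNA1-1) took 2.06% to 2.22% of reads in OCI-AML3 and at most 0.00153% in MV411 and MOLM13, so values of OCI-AML3 and of the other lines may not be measured alike. The summed levels of 6 myeloid markers lay between 20550 and 214410 normalised reads, and those of the T and NK, B, erythroid and megakaryocyte, and epithelial and fibroblast lists between 2.0 and 2584. In all MV411 and MOLM13 libraries MS4A1 and PF4, defining markers of B cells and platelets, were at 0, but other members of these lists were not.

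The members lie on 20 chromosomes. For 30 of them the RefSeq promoter table (GRCh38.p14, 300 bases around each start) held a sequence. The E-box CACGTG, the motif that MYC and related factors bind, was present in 12 of these 30 (40%), against 7.26% of 35116 promoters and 8.34% of 22199 promoters of protein-coding genes. The ETS motif CCGGAAG, or CTTCCGG on the other strand, was present in 11 (36.7%), against 10.3% and 12.8%. Both motifs occurred in 5 members and neither in 12, and the E-box reads the same on both strands. Windows of 120 bases upstream of 4 genes of small-subunit assembly are shown because these genes differ both in motifs and in response, from UTP20 and HEATR1, which fell with MI-503 in all 3 lines (in OCI-AML3 not on the deposited scale), to NOB1, which rose with AC220. Capitals mark the E-box and the ETS motif.
UTP20 (GRCh38.p14, chr12:101279985-101280104, + strand): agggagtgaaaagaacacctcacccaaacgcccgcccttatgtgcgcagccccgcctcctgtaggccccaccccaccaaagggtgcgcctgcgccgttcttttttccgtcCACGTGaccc
UTP18 (GRCh38.p14, chr17:51260408-51260527, + strand): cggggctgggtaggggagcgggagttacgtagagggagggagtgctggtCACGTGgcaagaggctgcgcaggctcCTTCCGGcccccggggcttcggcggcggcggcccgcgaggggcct
HEATR1 (GRCh38.p14, chr1:236604517-236604636, - strand): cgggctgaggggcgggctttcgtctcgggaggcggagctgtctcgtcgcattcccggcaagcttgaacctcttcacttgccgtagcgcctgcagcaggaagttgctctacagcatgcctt
NOB1 (GRCh38.p14, chr16:69754941-69755060, - strand): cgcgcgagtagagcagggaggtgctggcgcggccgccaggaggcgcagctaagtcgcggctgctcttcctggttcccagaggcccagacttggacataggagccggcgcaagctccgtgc
These windows hold an E-box in UTP20, both motifs in UTP18, and neither in HEATR1 and NOB1. With AC220 the median log2 fold change was -0.69 for the 12 with an E-box and -0.84 for the 18 without, with 12 and 16 of them lower than with DMSO. Members with and without the E-box thus had similar medians, and the difference was not tested.

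AC220 lowered nearly all of these genes in MV411, the combination lowered them further, and MI-503 alone had a smaller effect. With AC220 for 24 h, 45 of 48 members fell and 3 rose relative to DMSO, against 37.3% of 14421 genes lower and 37.7% higher, and the median log2 fold change was -0.78, against 0.01 for all genes. With the combination 46 fell and 1 rose (40.1% and 39.3% of all genes), with a median of -1.08, against 0.00. With MI-503 for 3 days 32 fell and 2 rose (30.8% and 29.8%), with a median of -0.20, against -0.01. At least 2-fold lower were 0 members with MI-503, against 4.6% of all genes, 14 with AC220, against 10.8%, and 26 with the combination, against 13.4%. Of the 4 group means the lowest was that of the combination for 40 members, and the highest was that of DMSO for 41. How often this order occurs over all genes was not counted. Calls are from limma, at an adjusted p under 0.05 over all genes. In bulk RNA, a lower level in every cell and fewer cells that express a gene cannot be told apart.

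**Figure D1:**
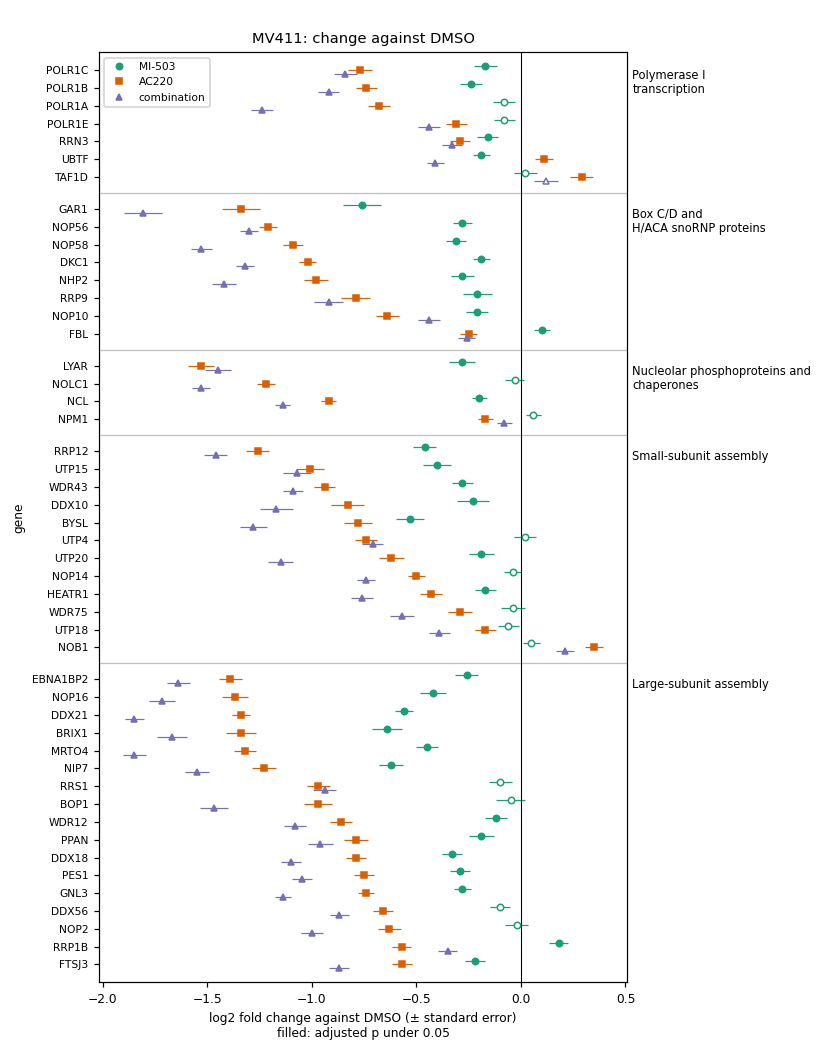
Log2 fold change of each of the 48 members in MV411 against DMSO (x axis, bars show the standard error, n = 3 libraries per group) for MI-503 (circles), AC220 (squares) and the combination (triangles), by role and ordered by the AC220 change. Filled symbols passed an adjusted p under 0.05, and AC220 and combination values lie left of 0 for all but UBTF (AC220), TAF1D and NOB1.

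Of the 7 polymerase I genes 5 fell and 2, UBTF and TAF1D, rose with AC220 (median -0.31). POLR1A, the largest subunit (RefSeq bounds on GRCh38.p14, as for the genes below, chromosome 2, 86020216 to 86105886), had 2591, 2708 and 2709 normalised reads with MI-503, 1676, 1843 and 1757 under AC220, 1260, 1196 and 1129 with the combination, and 2895, 2643 and 2906 with DMSO. AC220 and combination libraries lay below all DMSO libraries, while MI-503 overlapped DMSO. The change was -0.68 ± 0.0524 (log2 ± standard error, adjusted p = 3.39e-11) with AC220, -1.24 ± 0.0524 (adjusted p = 2.48e-16) with the combination, and -0.08 ± 0.0524 (adjusted p = 0.223) with MI-503. POLR1B, the second largest subunit (chromosome 2, 112542036 to 112579818), had 2407, 2458 and 2253 with MI-503, 1589, 1704 and 1739 under AC220, 1413, 1580 and 1444 with the combination, and 2764, 2775 and 2863 with DMSO. All its treated libraries lay below DMSO, with changes of -0.24 ± 0.0515, -0.74 ± 0.0515 and -0.92 ± 0.0515 in the same order of treatments. POLR1C, a subunit shared with polymerase III (chromosome 6, 43517089 to 43562407), had 1156, 1164 and 1149 with MI-503, 754.3, 787.9 and 739.5 under AC220, 709.4, 778.3 and 695.6 with the combination, and 1238, 1316 and 1345 with DMSO. It showed the largest AC220 change of this class (-0.77 ± 0.0563, adjusted p = 1.15e-11), and the combination did not pass against AC220 (-0.06 ± 0.0563, adjusted p = 0.343).

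RRN3 (TIF-IA), which brings polymerase I to the promoter (chromosome 16, 15060022 to 15094335), had 1854, 1811 and 1749 normalised reads with MI-503, 1646, 1623 and 1694 under AC220, 1556, 1565 and 1723 with the combination, and 2011, 2040 and 2012 with DMSO. It fell with each treatment, at -0.16, -0.29 and -0.33 on the log2 scale. UBTF, the upstream binding factor of ribosomal DNA (chromosome 17, 44205040 to 44221304), had 5246, 5101 and 5080 with MI-503, 6382, 6502 and 6054 under AC220, 4582, 4401 and 4217 with the combination, and 5709, 5911 and 5934 with DMSO. Its 4 groups did not overlap, and only its AC220 libraries lay above DMSO. UBTF rose by 0.11 ± 0.0413 with AC220 (adjusted p = 0.0209), a call lost without DMSO replicate 1 (0.09, adjusted p = 0.0822), AC220 replicate 1 (0.10, adjusted p = 0.0624) or AC220 replicate 2 (0.09, adjusted p = 0.0996), and it fell by 0.41 with the combination (adjusted p = 2.74e-09). TAF1D, a subunit of the selectivity factor SL1, rose by 0.29 ± 0.0556 with AC220 (adjusted p = 4.96e-05) and stood at 0.12 ± 0.0556 (adjusted p = 0.0542) with the combination. POLR1E, the polymerase-associated factor PAF53, fell with AC220 (-0.31 ± 0.0503) and the combination (-0.44 ± 0.0503), and its MI-503 change did not pass (-0.08 ± 0.0503).

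All 8 proteins of the small nucleolar RNA particles fell with AC220 and with the combination, with log2 fold changes of -1.34 to -0.25 and of -1.81 to -0.26. GAR1, a core protein of box H/ACA particles (chromosome 4, 109815510 to 109824737), had 499.2, 505.6 and 450.8 normalised reads with MI-503, 326.3, 297.4 and 351.9 under AC220, 203, 241.1 and 261.6 with the combination, and 834.6, 883.3 and 748.4 with DMSO. No treated library reached the lowest DMSO library. Its level was 0.591 of DMSO with MI-503 (-0.76 ± 0.0907, adjusted p = 1.42e-07), 0.396 with AC220 (-1.34 ± 0.0907) and 0.286 with the combination (-1.81 ± 0.0907), and its MI-503 change was the largest of the 48. DKC1, the pseudouridine synthase of the same particles (chromosome X, 154762864 to 154777689), had 4812, 4841 and 4760 with MI-503, 2702, 2719 and 2676 under AC220, 2125, 2283 and 2181 with the combination, and 5420, 5338 and 5714 with DMSO. The 4 groups were wholly apart, at -0.19 ± 0.0413, -1.02 ± 0.0413 and -1.32 ± 0.0413 for the 3 treatments. NHP2, another H/ACA protein, stood at -0.28, -0.98 and -1.42 with MI-503, AC220 and the combination, and NOP10, the smallest one, at -0.21, -0.64 and -0.44.

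Of the box C/D proteins, FBL (fibrillarin), the 2′-O-methyltransferase, behaved apart from NOP56 and NOP58, which form the scaffold around it. FBL (chromosome 19, 39834458 to 39846379) had 10895, 11150 and 11231 normalised reads with MI-503, 8456, 8997 and 8667 under AC220, 8906, 8786 and 8333 with the combination, and 10128, 10195 and 10782 with DMSO. The MI-503 libraries lay just above DMSO and the others below it. FBL rose by 0.10 ± 0.0396 with MI-503 (adjusted p = 0.0367) and fell by 0.25 with AC220 and by 0.26 with the combination. The rise did not pass without DMSO replicate 1 (0.08, adjusted p = 0.124), DMSO replicate 2 (0.09, adjusted p = 0.108), MI-503 replicate 2 (0.09, adjusted p = 0.0893) or MI-503 replicate 3 (0.09, adjusted p = 0.109). NOP56 stood at -0.28, -1.21 and -1.30 and NOP58 at -0.31, -1.09 and -1.53 with MI-503, AC220 and the combination. RRP9, a protein of the U3 particle, stood at -0.21, -0.79 and -0.92, and all of these passed.

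Among the nucleolar phosphoproteins and chaperones, NCL (nucleolin), which acts from transcription to assembly (chromosome 2, 231453531 to 231464484), had 40669, 42316 and 40856 normalised reads with MI-503, 24533, 25441 and 25014 under AC220, 21463, 21878 and 21309 with the combination, and 47933, 45786 and 48472 with DMSO. Each treated group lay below DMSO and apart from the others. NCL stood at 0.871, 0.527 and 0.455 of its DMSO level, with a combination change of -1.14 ± 0.0358 (adjusted p = 9.77e-19). LYAR, a cell growth regulating nucleolar protein (chromosome 4, 4267701 to 4290154), had 878.2, 896.3 and 895.7 with MI-503, 364.7, 382 and 377.3 under AC220, 365.4, 424.2 and 395 with the combination, and 1097, 1077 and 1067 with DMSO. Its AC220 change was the largest of the 48 (-1.53 ± 0.0623, adjusted p = 1.8e-16), and the combination (-1.45 ± 0.0623) did not pass against AC220 (0.07 ± 0.0623, adjusted p = 0.332). NOLC1 (Nopp140), which chaperones the particles, had 7837, 8156 and 7701 with MI-503, 3280, 3666 and 3450 under AC220, 2761, 2885 and 2776 with the combination, and 8167, 7767 and 8329 with DMSO. MI-503 overlapped DMSO (-0.03 ± 0.0444, adjusted p = 0.528), whereas AC220 and the combination stood at -1.22 ± 0.0444 and -1.53 ± 0.0444.

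NPM1 (nucleophosmin), a chaperone of the granular nucleolus (chromosome 5, 171387116 to 171410900), moved little. It had 26528, 27841 and 27545 normalised reads with MI-503, 23130, 23374 and 23522 under AC220, 23861, 25415 and 25259 with the combination, and 26233, 26303 and 26248 with DMSO. AC220 libraries lay below DMSO, at -0.17 ± 0.0359 (adjusted p = 0.000174), and the MI-503 change did not pass (0.06 ± 0.0359, adjusted p = 0.185). Its combination change of -0.08 ± 0.0359 (adjusted p = 0.0441) was lost without combination replicate 1 (-0.05, adjusted p = 0.194) and without any 1 of 8 other libraries, all 3 DMSO libraries, all 3 AC220 libraries and MI-503 replicates 2 and 3 (adjusted p = 0.0529 to 0.0808). The annotation lists 45 processed or unprocessed pseudogenes under its name, and reads shared with them could be split in counting.

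In small-subunit assembly 11 of 12 members fell and NOB1 rose with AC220 (median -0.68) and again with the combination (median -0.92), and with MI-503 7 of the 12 fell (median -0.18). RRP12, known from yeast to help nuclear export of both subunits (chromosome 10, 97356357 to 97401370), had 2294, 2131 and 2183 normalised reads with MI-503, 1338, 1231 and 1217 under AC220, 1188, 1088 and 1023 with the combination, and 2942, 3022 and 3094 with DMSO. All 4 groups were apart, with changes of -0.46 ± 0.055, -1.26 ± 0.055 (adjusted p = 6.75e-16) and -1.46 ± 0.055. The 5 members of the UtpA complex, which binds the nascent precursor first (HEATR1, UTP4, UTP15, WDR43 and WDR75), all fell with AC220 (-1.01 to -0.29) and with the combination (-1.09 to -0.57). With MI-503 3 of the 5 fell, UTP15, WDR43 and HEATR1. BYSL (bystin), an essential factor of late 40S maturation, fell too, at -0.53 with MI-503, -0.78 with AC220 and -1.28 with the combination. Smaller changes were those of UTP18, a processome protein (-0.17 ± 0.0497 with AC220 and -0.39 ± 0.0497 with the combination), and NOP14, a processome protein as well (-0.50 ± 0.0422 and -0.74 ± 0.0422). DDX10, an RNA helicase, stood at -0.83 ± 0.0775 and -1.17 ± 0.0775.

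NOB1, the endonuclease that makes the last cut of 18S rRNA (chromosome 16, 69741871 to 69754926), went against the rest. It had 2383, 2305 and 2421 normalised reads with MI-503, 2961, 2915 and 2897 under AC220, 2750, 2680 and 2565 with the combination, and 2308, 2247 and 2333 with DMSO. AC220 and combination libraries lay above every DMSO library, at 0.35 ± 0.0426 (adjusted p = 9.5e-08) and 0.21 ± 0.0426 (adjusted p = 7.69e-05), while MI-503 overlapped DMSO (0.05 ± 0.0426, adjusted p = 0.369). It was the 1 member that rose with the combination. That count became 2 without DMSO replicate 2 or without combination replicate 1.

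All 17 genes of large-subunit assembly fell with AC220 (median -0.86) and with the combination (median -1.10), and with MI-503 12 fell and RRP1B rose. EBNA1BP2 (EBP2), needed for 27S precursor processing in yeast (chromosome 1, 43164174 to 43172570), had 2053, 2097 and 2062 normalised reads with MI-503, 897.3, 976.9 and 968.5 under AC220, 809.8, 753.8 and 818.7 with the combination, and 2410, 2371 and 2657 with DMSO. It stood at 0.383 of DMSO with AC220 (-1.39 ± 0.0542, adjusted p = 7.8e-17) and at 0.321 with the combination. DDX21, a nucleolar RNA helicase (chromosome 10, 68956170 to 68985068), had 10103, 11091 and 9882 with MI-503, 5965, 6005 and 6129 under AC220, 3998, 4361 and 4381 with the combination, and 15429, 14873 and 15517 with DMSO. Its 4 groups were wholly apart. DDX21 gave the largest moderated t of the members with each treatment, at -0.56 ± 0.0449 (adjusted p = 1.79e-10), -1.34 ± 0.0449 (adjusted p = 4.14e-18) and -1.85 ± 0.0449 (adjusted p = 8.68e-21).

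MRTO4, a placeholder for the ribosomal stalk protein P0 (chromosome 1, 19251805 to 19260128), had 1985, 2065 and 1968 normalised reads with MI-503, 1042, 1138 and 1119 under AC220, 760.1, 799.6 and 722.3 with the combination, and 2702, 2620 and 2921 with DMSO. It shared with DDX21 the lowest combination change (-1.85 ± 0.0543). The PeBoW complex (PES1, BOP1 and WDR12), which processes the 32S precursor, fell with AC220 (-0.97 to -0.75) and with the combination (-1.47 to -1.05). With MI-503 PES1 (-0.29) and WDR12 (-0.12) passed and BOP1 (-0.05 ± 0.0681, adjusted p = 0.56) did not. NIP7 and BRIX1, known from yeast as 60S factors, had among the largest MI-503 changes, at -0.62 ± 0.0572 and -0.64 ± 0.073. RRP1B, which rose with MI-503 (0.18 ± 0.0458, adjusted p = 0.00202), fell with AC220 (-0.57 ± 0.0458) and the combination (-0.35 ± 0.0458).

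Of the other large-subunit members, NOP16 stood at -0.42 ± 0.0622 with MI-503, -1.37 ± 0.0622 with AC220 and -1.72 ± 0.0622 with the combination. The helicases DDX18 and DDX56 stood at -0.79 ± 0.0479 and -0.66 ± 0.0461 with AC220 and at -1.10 ± 0.0479 and -0.87 ± 0.0461 with the combination, and with MI-503 DDX18 passed (-0.33) and DDX56 did not (-0.10). FTSJ3, an rRNA methyltransferase, fell with each treatment (-0.22, -0.57 and -0.87). NOP2, which methylates a cytosine of 28S rRNA, did not pass with MI-503 (-0.02 ± 0.0549) and fell with AC220 (-0.63 ± 0.0549). RRS1, a factor of 5S particle assembly, also did not pass with MI-503 (-0.10 ± 0.055) and stood at -0.97 ± 0.055 with AC220 and -0.94 ± 0.055 with the combination. These values split the class with MI-503, where 12 fell, but not with AC220 or the combination, where every member did.

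**Figure D2:**
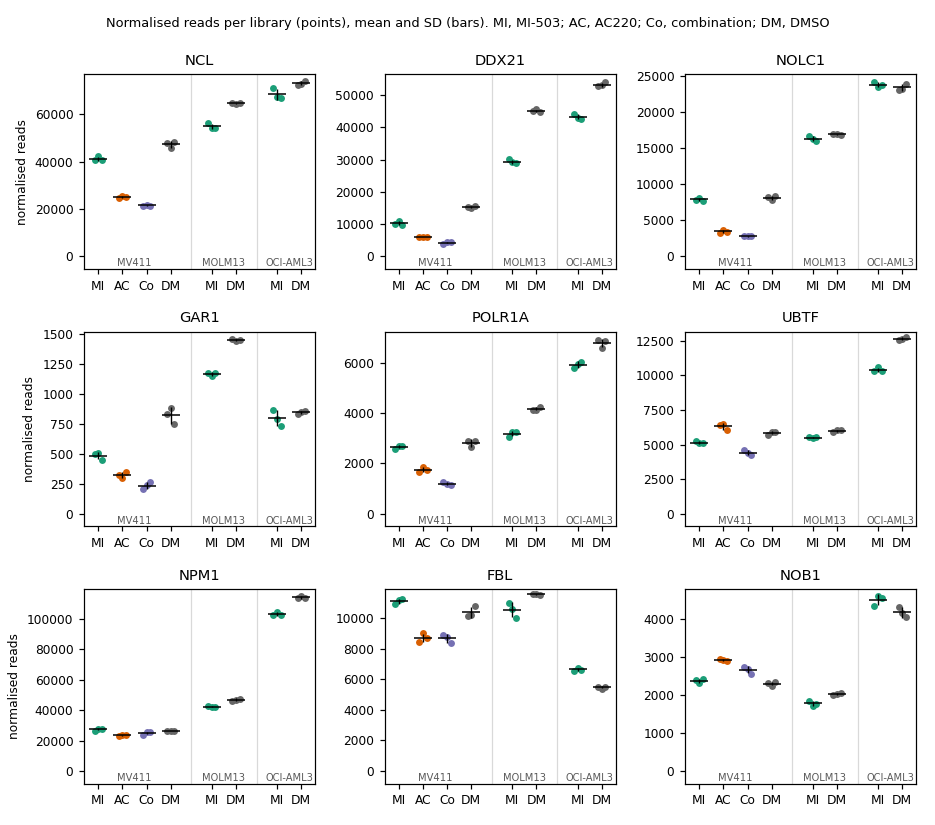
Normalised reads of 9 members in each library (points; bars show mean and SD, n = 3) for MI-503, AC220, the combination and DMSO in MV411, and for MI-503 and DMSO in MOLM13 and OCI-AML3. In MV411, DDX21, NCL and GAR1 step down over all 3 treatments, while UBTF and NOB1 are highest with AC220.

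Set against its parts, the combination lay below AC220 in 36 members and above it in 3 (28.1% and 27.4% of all genes), with a median of -0.25, and 0 lay at least 2-fold below it (2.86%). UBTF (-0.52 ± 0.0413), POLR1A (-0.56 ± 0.0524), DDX21 (-0.51 ± 0.0449), GNL3 (nucleostemin, a nucleolar GTPase; -0.39 ± 0.0391) and MRTO4 (-0.53 ± 0.0543) had the largest moderated t. The 3 that lay higher were NOP10 (0.20 ± 0.0541), NPM1 (0.09 ± 0.0359, adjusted p = 0.0381) and RRP1B (0.22 ± 0.0458). Without AC220 replicate 1, 2 or 3 or combination replicate 2 or 3 NPM1 did not pass here (adjusted p = 0.0667 to 0.157), nor with equal library totals (0.04, adjusted p = 0.289), without a filter (adjusted p = 0.0761), without a variance trend (adjusted p = 0.0645) or with only the groups compared (adjusted p = 0.0673). Against MI-503 the combination lowered 46 and raised NOB1 (33.6% and 34.9% of all genes), with a median of -0.79 and NOLC1 at -1.49 ± 0.0444, and 15 were at least 2-fold lower (7.41%). Without combination replicate 1 the members raised were 2. AC220 against MI-503 gave 44 lower and 3 higher (34.5% and 33.8%), with a median of -0.60 and 3 at least 2-fold lower (7.63%), the 3 higher being UBTF (0.30), TAF1D (0.27) and NOB1 (0.30). The treatment times differed, 24 h for AC220 and 3 days for MI-503, and drug and time cannot be told apart there.

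The interaction, the combination minus both single effects, asked whether the log2 changes added up. Its median over the members was -0.01, and 10 members were lower and 7 higher than the sum (21.6% and 20.9% of all genes), shares of the members no larger than those of all genes. With equal library totals 17 were lower. POLR1A fell further with the combination than the single drugs add up to (interaction -0.48 ± 0.0741, adjusted p = 1.26e-05), as did BOP1 (-0.45 ± 0.0963, adjusted p = 0.000596) and UBTF (-0.33 ± 0.0584, adjusted p = 6.18e-05). NOP10 fell less (0.42 ± 0.0765, adjusted p = 0.000114). For the other 31 members the interaction did not pass, which does not show that the effects add exactly. GAR1, for example, stood at 0.29 ± 0.128 (adjusted p = 0.075).

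Proliferation markers changed in MV411 too, and their sum was lowest with AC220. The 10 markers summed to 68119 to 70817 normalised reads with MI-503, 10609 to 11758 under AC220, 17260 to 18333 with the combination, and 72955 to 74726 with DMSO. All 10 fell with AC220 (median -2.88) and with the combination (median -1.86), and with MI-503 6 fell and 1 rose (median -0.18). Between the combination and AC220 the directions parted: 7 markers were higher and 2 lower with the combination (median 0.58), whereas 36 of the 48 members were lower. Markers of cell types moved too. The 6 myeloid markers summed to 194346 to 205068 normalised reads with MI-503, 81066 to 86260 under AC220, 212973 to 214410 with the combination, and 52362 to 53691 with DMSO. The T and NK list (6 genes) summed to 1728 to 1880 with MI-503, 1007 to 1078 under AC220, 2291 to 2584 with the combination, and 885.3 to 915.4 with DMSO, with CD3E at 0 in the MI-503 and DMSO libraries. The sums of both lists were thus higher in every treated library than in any DMSO library, but not every gene rose. Of the 6 myeloid genes 5 rose and 1, PTPRC (-0.23), fell with MI-503. With AC220 3 rose and 1 fell, the lowest change being that of MPO (-0.37), and with the combination 5 rose. LYZ had the highest change each time (2.55, 0.90 and 2.60). Only 2 genes of the T and NK list, CD7 and NKG7, were tested, and both rose with each treatment. The B list (5 genes) summed to 75.2 to 88.6 with MI-503, 118.2 to 168.9 under AC220, 81.1 to 104.9 with the combination, and 162.2 to 175.6 with DMSO. The erythroid and megakaryocyte list (5 genes) summed to 221.0 to 257.6 with MI-503, 828.7 to 988.4 under AC220, 224.7 to 307.9 with the combination, and 825.0 to 903.7 with DMSO. The sums of the B and of the erythroid and megakaryocyte lists were lower with MI-503 and with the combination, and under AC220 they overlapped DMSO. The epithelial and fibroblast list (6 genes) summed to 136.4 to 145.1, 167.0 to 191.9 and 209.3 to 223.3 in the same order of treatments, against 147.5 to 165.6 with DMSO. The part of proliferation and of these markers in the members' changes was not tested.

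A separate list of 137 ribosome assembly and polymerase I genes, of which 135 were tested in MV411, moved the same way. With MI-503 68 fell and 11 rose (median -0.12), with AC220 114 fell and 9 rose (median -0.53), and with the combination 120 fell and 8 rose (median -0.68). In the same order, 30.8%, 37.3% and 40.1% of all genes fell, and 29.8%, 37.7% and 39.3% rose. RUVBL1, an ATPase of the particle assembly machinery, stood at -1.83 ± 0.0506 with the combination, and TCOF1 (treacle), which aids ribosomal DNA transcription, at -1.63 ± 0.0597. POLR1D, a small subunit shared with polymerase III, rose by 0.70 ± 0.0457 under AC220, as did the 60S factor NOP53 (0.70 ± 0.0542). In MV411 the genes for structural proteins of the ribosome went the other way. Of 77 cytosolic ribosomal protein genes tested, 77 rose with MI-503 (median 0.42), 75 with AC220 (median 0.28) and 77 with the combination (median 0.55). Of all genes 29.8%, 37.7% and 39.3% rose. The other lines differed. With MI-503 40 of 78 tested rose and 6 fell in MOLM13 (median 0.08), against 29.9% of all genes each way. In OCI-AML3 11 of 79 rose and 27 fell (median -0.03), against 32.9% and 32.8% of all genes.

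**Figure D3:**
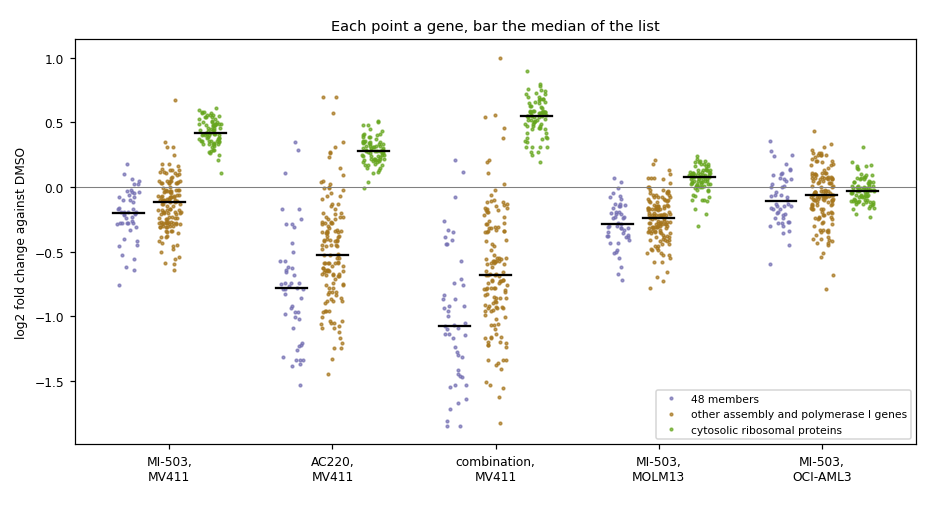
Log2 fold change against DMSO of single genes (points) with the median of each list (bars), for the 48 members, the 137 other assembly and polymerase I genes and the 79 cytosolic ribosomal protein genes, as far as tested. In MV411 the members lie mostly below 0 and the ribosomal protein genes above it, at medians of -0.78 and 0.28 with AC220.

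The entry RNA45S5 covers the rRNA precursor, a polymerase I product without a poly(A) tail, and the mature rRNAs cut from it. It had 54682, 57375 and 56663 normalised reads with MI-503, 57034, 55010 and 58206 under AC220, 146129, 115156 and 113520 with the combination, and 39527, 44087 and 41933 with DMSO. Each treated group lay above DMSO, at 0.43 ± 0.0637, 0.44 ± 0.0637 and 1.57 ± 0.0637 (adjusted p = 1.08e-16), and the interaction was 0.70 ± 0.0901 (adjusted p = 1.07e-06). In MV411 RNA45S5 thus rose while most members fell. With MI-503 it stood at 0.08 ± 0.0755 (adjusted p = 0.386) in MOLM13, where 43 members fell, and rose by 0.35 ± 0.0845 (adjusted p = 0.00297) in OCI-AML3, where they were mixed. RPPH1, the RNA of RNase P, which cuts tRNA precursors and likewise lacks a poly(A) tail, also rose with the combination (3.06 ± 0.421, adjusted p = 5.12e-07), to 187.2, 59.0 and 59.5 normalised reads, against 11.4, 15.1 and 4.9 with DMSO. RMRP, the RNA of RNase MRP, had 201.9, 56.0 and 65.7 with the combination and 21.9, 18.1 and 22.5 with DMSO (2.08 ± 0.319, adjusted p = 2.65e-06). Combination replicate 1 stood apart from its 2 fellows in all 3 transcripts. Reads of the precursor and of mature rRNA cannot be told apart in the RNA45S5 entry. How much of the RNA45S5 signal follows poly(A) selection was not tested.

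**Figure D4:**
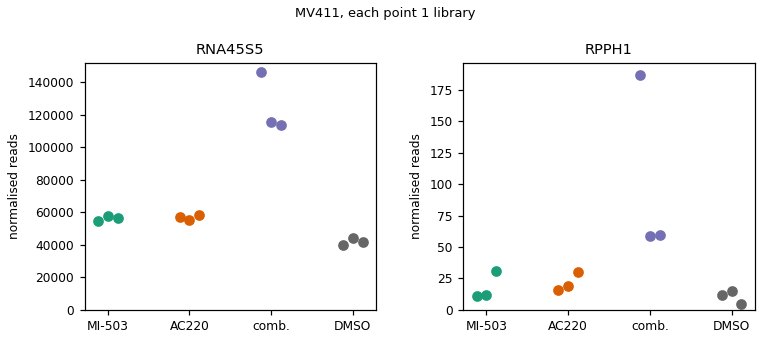
Normalised reads of RNA45S5 (rRNA precursor and mature rRNA, left) and of RPPH1 (right) in the 12 MV411 libraries (each point 1 library). Neither carries a poly(A) tail. Both are highest with the combination, where replicate 1 lies above the other 2.

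In MOLM13, MI-503 for 4 days lowered 43 of the 48 members and raised 0, against 29.9% of 13391 genes lower and 29.9% higher, with a median of -0.29, against -0.01 for all genes. Higher members also numbered 0 at an unadjusted p under 0.05 in limma, in edgeR and in DESeq2, and 0 were at least 2-fold lower, against 1.56%. The other 5, RRN3, TAF1D, NOP10, NOLC1 and WDR12, lay between -0.07 and 0.07. On the deposited scale 48 were lower (76.7% of all genes lower, 6.74% higher). DDX21 had 30060, 29222 and 28878 normalised reads with MI-503 and 45128, 45546 and 44897 with DMSO, wholly apart (-0.62 ± 0.0246, adjusted p = 1.31e-12). UTP20, a large scaffold of the small-subunit processome (chromosome 12, 101280105 to 101386618), had 4410, 5071 and 4696 with MI-503 and 8024, 7800 and 7463 with DMSO. It gave the lowest change of the 48 in this line (-0.72 ± 0.0411), and its groups did not overlap. RRP12 had 3135, 3086 and 3156 with MI-503 and 5159, 4816 and 4993 with DMSO (-0.67 ± 0.0307).

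NCL had 56288, 54156 and 54336 normalised reads with MI-503 and 64812, 64468 and 64746 with DMSO in MOLM13 (-0.24 ± 0.0249). DKC1 had 6737, 6788 and 6497 with MI-503 and 7400, 7474 and 7459 with DMSO (-0.16 ± 0.0265). These changes are larger than the spread between libraries but well under 2-fold. POLR1A (-0.39 ± 0.0311) and UBTF (-0.13 ± 0.0256) fell, and so did FBL (-0.13 ± 0.0306), GAR1 (-0.32 ± 0.0366), NOP56 (-0.38 ± 0.0244) and EBNA1BP2 (-0.43 ± 0.0296). RRN3 stood at the threshold (-0.07 ± 0.0314, adjusted p = 0.05). All 12 small-subunit members and 16 of 17 large-subunit members fell. Of the 137 other assembly genes 110 of 136 tested fell and 3 rose (median -0.24), and of the proliferation markers 7 fell and 1 rose (median -0.12). Of all genes 29.9% fell and 29.9% rose. The myeloid list summed to 36717 to 39610 with MI-503 and 20550 to 21319 with DMSO, the T and NK list to 759.7 to 861.5 with MI-503 and 259.0 to 267.5 with DMSO, and the B list to 889.2 to 1013 with MI-503 and 1341 to 1382 with DMSO. All 6 myeloid genes rose. Of the T and NK list only NKG7 was tested, and it rose (1.62). Of 3 B genes tested 1 fell and 1 rose, with changes from -0.59 (PAX5) to 1.79 (CD79A). The part of these markers in the members' changes was not tested. Without DMSO replicate 2 the members that rose were 1.

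In OCI-AML3 the members were mixed. MI-503 for 4 days lowered 25 and raised 10, against 32.8% of 15682 genes lower and 32.9% higher, and the median was -0.11, against -0.00 for all genes, with 0 at least 2-fold lower (3.28%). With 1 library left out, 24 to 28 fell and 7 to 14 rose. On the deposited scale 1, RRP12, was lower (-0.76, adjusted p = 0.0484) and 0 higher (6.82% and 3.85% of all genes), and 5 of the 10 that rose, UTP15, DDX10, NOB1, RRP1B and NIP7, lay below 0 there. RRP12 had 6332, 6814 and 7030 normalised reads with MI-503 and 9713, 9988 and 10920 with DMSO, apart by -0.60 ± 0.0465 (adjusted p = 2.62e-07), the lowest change in this line. WDR43, a UtpA subunit, had 15908, 15362 and 15420 with MI-503 and 20949, 21283 and 21612 with DMSO (-0.45 ± 0.0257). UBTF had 10332, 10577 and 10285 with MI-503 and 12555, 12646 and 12743 with DMSO (-0.28 ± 0.025). These 3 genes were lower in every MI-503 library. NOP10 had 5009, 5496 and 5506 with MI-503 and 4226, 4217 and 4019 with DMSO, the largest rise (0.36 ± 0.04, adjusted p = 6.3e-06, and not called on the deposited scale).

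FBL, which fell slightly in MOLM13, was higher in OCI-AML3, with 6528, 6760 and 6616 normalised reads with MI-503 and 5504, 5385 and 5500 with DMSO (0.28 ± 0.0278, adjusted p = 2.34e-06). On the deposited scale it stood at 0.12 (adjusted p = 0.854). GNL3 (0.18 ± 0.0277), LYAR (0.25 ± 0.0329) and WDR75 (0.24 ± 0.0414) also rose, whereas POLR1B (-0.00 ± 0.0271, adjusted p = 0.983), POLR1C (-0.06 ± 0.0414) and GAR1 (-0.08 ± 0.0587) did not pass. NPM1 had 102350, 104145 and 102427 with MI-503 and 113265, 114891 and 113503 with DMSO (-0.15 ± 0.0228). DKC1 fell by 0.30 and NCL by 0.10 (adjusted p = 0.00985). The call of NCL was lost with equal library totals (-0.04, adjusted p = 0.255), without MI-503 replicate 3 (-0.08, adjusted p = 0.0544), without a variance trend (adjusted p = 0.0586) and on the deposited scale (-0.26, adjusted p = 0.642). NOB1 rose by 0.11 ± 0.0355, a call lost without DMSO replicate 2 or 3 or MI-503 replicate 2 or 3 (adjusted p = 0.0582 to 0.0836). UTP15 lost its call without DMSO replicate 1 or 2 (adjusted p = 0.0715 and 0.0507). DDX10 lost its call without DMSO replicate 1 or 2 or MI-503 replicate 2 (adjusted p = 0.0557 to 0.127). The DDX10 call was also lost without a variance trend, with DESeq2 and with the replicate block. Of the other assembly genes 61 fell and 30 rose of 136 tested (median -0.06), and of the proliferation markers 3 fell and 4 rose (median -0.02). Of all genes 32.8% fell and 32.9% rose. The myeloid list summed to 129402 to 130698 with MI-503 and 147606 to 150626 with DMSO, and the T and NK list to 174.7 to 193.3 with MI-503 and 119.3 to 126.5 with DMSO, whose part was not tested either. Of the 6 myeloid genes 3 fell and 2 rose, with changes from -0.86 (PTPRC) to 0.65 (LYZ). Only NKG7 of the T and NK list was tested, and it rose (0.60).

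**Figure D5:**
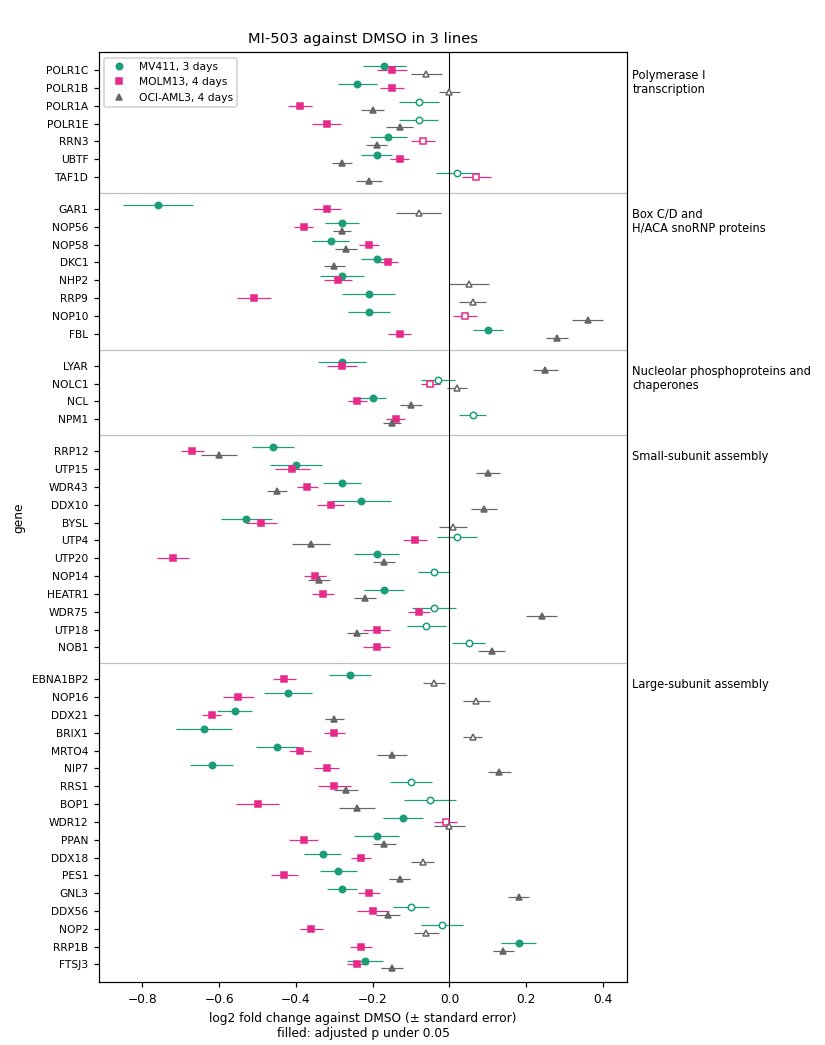
Log2 fold change of each member with MI-503 against DMSO (x axis, bars show the standard error, n = 3 libraries per group) in MV411 (circles, 3 days), MOLM13 (squares, 4 days) and OCI-AML3 (triangles, 4 days). Filled symbols passed an adjusted p under 0.05. MOLM13 values lie at or below 0.07 throughout, while OCI-AML3 values reach 0.36.

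The MI-503 effect was compared between the 3 lines by the difference of the within-line effects. A total of 14 members fell in all 3 lines (UBTF, NOP56, NOP58, DKC1, NCL, WDR43, UTP20, HEATR1, RRP12, PES1, MRTO4, PPAN, DDX21 and FTSJ3), against 7.22% of 12635 genes, and 0 rose in all 3, against 7.15%. The deposited scale left 1, RRP12, lower in all 3 lines, against 2.14% of 12634 genes, and 0 rose, against 0.697%. That scale equals the median of ratios in MV411 but not in MOLM13 and OCI-AML3. MOLM13 minus OCI-AML3 gave 32 members with a lower and 6 with a higher effect (30.5% and 32.4% of all genes), with a median of -0.21. On the deposited scale, where the median of all genes lay at -0.37, these counts were 20 and 0 (20% and 4.7%), with 28 and 0 at an unadjusted p under 0.05. NOP16, a 60S assembly factor, showed the largest such difference (-0.63 ± 0.0579, adjusted p = 4.64e-08), at -0.55 in MOLM13 and 0.07 in OCI-AML3. NIP7 (-0.45 ± 0.0426), EBNA1BP2 (-0.39 ± 0.0378) and BRIX1 (-0.36 ± 0.0336) followed by moderated t. Library type, depth and table differ with the line, and these cannot be told apart from it.

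MV411 minus MOLM13 gave 4 members lower and 17 higher (30.6% and 26.3% of all genes), with a median of 0.07, and the lower count was 7 without MV411 DMSO replicate 2. UTP20 (0.53 ± 0.0649), RRP1B (0.41 ± 0.0508), NOP14 (0.31 ± 0.047) and NOP2 (0.34 ± 0.0521) had the largest moderated t, and all of them fell in MOLM13. The 4 with the lower effect in MV411 were GAR1, NIP7, BRIX1 and NOP10. On the deposited scale, with the median of all genes at 0.52, 0 were lower and 46 higher (8.08% and 69.5%), as at an unadjusted p under 0.05. Deposited values have the median-of-ratios scale in MV411 but not in MOLM13 and OCI-AML3. Both differences from MV411 thus set unlike scalings against each other on the deposited scale. MV411 minus OCI-AML3 gave 20 lower and 9 higher (31.8% and 31.3%), with a median of -0.06, and 0 and 0 on the deposited scale in limma (6.66% and 12.9%), where 2 and 1 had an unadjusted p under 0.05. NIP7 (-0.75 ± 0.063), BRIX1 (-0.70 ± 0.0596), GNL3 (-0.46 ± 0.0435) and LYAR (-0.53 ± 0.0518) fell in MV411 and lay above 0 in OCI-AML3. On the deposited scale NIP7 (-0.03) and BRIX1 (-0.10) lay below 0 in OCI-AML3. Treatment lasted 3 days in MV411 and 4 days in the other lines. Across the 48 members the log2 changes of MV411 and MOLM13 had a Pearson r of 0.45 (Spearman 0.48), those of MOLM13 and OCI-AML3 0.29 (0.19) and those of MV411 and OCI-AML3 0.02 (-0.04), against 0.27, 0.18 and 0.25 (Pearson) over 12635 genes. The genes of a library share its depth and scale.

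Some counts rest on overlapping annotation. By GENCODE 29, 9 members hold 34 snoRNA genes within their bounds, TAF1D with 8, GNL3 with 6, NOP56 with 5 and NOP58 with 4 among them. These 9 host genes had a median of -0.92 under AC220, 8 falling and TAF1D rising, and the 39 members without a snoRNA had a median of -0.75. Exons of 4 members overlap another gene on the same strand (HEATR1, NOP2, RRS1, and PPAN with P2RY11 and the PPAN-P2RY11 readthrough) and those of 19 overlap an antisense gene. Pseudogenes bear the name of 11 members. The sources used here do not say whether counting used strand, so reads in these overlaps cannot be assigned.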

How the data were processed

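The deposited tables, 1 per line, hold 25680 genes. The authors normalised the values with DESeq version 2 and placed genes on hg38, per the submitters' processing notes, and per the labels they added ERCC spike-in RNA. Aligner, counter and annotation are not given in the sources used here. The deposited values are called signal. In every library they were whole reads divided by 1 factor (tolerance 0.001). These factors were the median-of-ratios factors in MV411, whereas in MOLM13 and OCI-AML3 they were not (ratios 0.7616 to 1.254 and 0.7885 to 1.235), so all values were divided by median-of-ratios factors, with the deposited scale as an alternative.

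limma 3.58.1 in R 4.3.3 was run on log2(value + 1) with a variance trend, keeping genes that reached 10 in 3 or more libraries. Two-sided p-values were adjusted over all genes by Benjamini-Hochberg, and 0.05 was the threshold. One fit held all 12 MV411 libraries, and line differences were fitted on genes that passed the filter in each table. Fold changes are on the log2(value + 1) scale. Alternatives were edgeR 4.0.16 and DESeq2 1.42.0 on recovered reads, TMM, equal totals, pseudocounts of 0.5 and 8, a minimum of 50, no filter, no trend, only the groups compared, a replicate block, and leaving out each library. Scripts were tested on simulated data.

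The members and lists were chosen with earlier results of these data known. Values in every MV411 library are given for 8 members chosen by role and for the member of each role class with the largest AC220 change. In MOLM13 and OCI-AML3 library values are given for some members only. Also picked out, per comparison, were the 5 members with the largest moderated t (4 for the interaction and line differences) and those that passed against the majority. Not all of these are named under every comparison. Other members named, DDX21, NOLC1, MRTO4, UTP20, NOB1, NOP10 and WDR43 with library values among them, illustrate their class or complex. No pairing of samples by replicate number was seen (same-number correlations -0.0814 to 0.121 in MV411, -0.00674 to 0.0698 in MOLM13, -0.0497 to 0.0378 in OCI-AML3). Weak correlations do not show that no pairing existed. P-values test differences of group means against the spread within triplicates, pooled over the groups of a fit and moderated across genes. They do not cover the spread between leukaemias.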

Additional observations from a re-analysis of the deposited data

Results flagged for a closer look

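Differences between treatments or lines that passed a test of the difference itself are listed here. For the interaction in MV411, 10 members were lower and 7 higher than the sum of the single effects, against 21.6% and 20.9% of all genes, and the largest moderated t were those of POLR1A (-0.48), BOP1 (-0.45), UBTF (-0.33) and NOP10 (0.42). For MOLM13 minus OCI-AML3, 32 members had a lower and 6 a higher MI-503 effect (30.5% and 32.4% of all genes), led by NOP16 (-0.63), NIP7 (-0.45), EBNA1BP2 (-0.39) and BRIX1 (-0.36). For MV411 minus MOLM13 the counts were 4 lower and 17 higher (30.6% and 26.3%), led by UTP20 (0.53), RRP1B (0.41), NOP2 (0.34) and NOP14 (0.31). For MV411 minus OCI-AML3 they were 20 and 9 (31.8% and 31.3%), led by NIP7 (-0.75), BRIX1 (-0.70), LYAR (-0.53) and GNL3 (-0.46). On the deposited scale the counts of these line differences were 20 and 0 (20% and 4.7%), 0 and 46 (8.08% and 69.5%), and 0 and 0 (6.66% and 12.9%). NIP7, BRIX1, LYAR and GNL3 did not pass there in limma for MV411 minus OCI-AML3 (adjusted p = 0.0876, 0.125, 0.34 and 0.453). For the differences from MV411 the deposited scale sets unlike scalings against each other.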

How the results depend on the processing

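Over the alternatives, 516 counts of members lower or higher stayed within 1.5 times the value given and 24 moved further. On the deposited scale the counts were 1 lower and 0 higher for MI-503 in OCI-AML3, 20 and 0 for MOLM13 minus OCI-AML3, 0 and 46 for MV411 minus MOLM13, and 0 and 0 for MV411 minus OCI-AML3, and in OCI-AML3 UTP15 (-0.06), DDX10 (-0.07), NOB1 (-0.05), RRP1B (-0.02) and NIP7 (-0.03) turned negative. In MV411 the deposited scale is the median of ratios, so the differences from MV411 mix unlike scalings. With equal library totals the interaction had 17 lower, MOLM13 minus OCI-AML3 3 higher and MV411 minus OCI-AML3 5 higher, and in OCI-AML3 POLR1B stood at 0.06 and EBNA1BP2 at 0.02. Without a filter or without a trend 1 member rose with MI-503 in MV411. With edgeR 2 rose with the combination, as they did with the replicate block. Otherwise the replicate block moved no count by over 1.5 times, and no pairing by its numbers was seen. Leaving out 1 library gave 1 to 2 higher with MI-503 in MV411, 1 to 2 with the combination against DMSO and 1 to 2 against MI-503. With MI-503 it gave 0 to 1 higher in MOLM13 and 7 to 14 in OCI-AML3. For MV411 minus MOLM13 it gave 4 to 7 lower. FBL for the combination against AC220 became 0.02 without AC220 replicate 2 or combination replicate 3, and POLR1B in OCI-AML3 lay between -0.01 and 0.01 with 1 library left out. The cause of these changes was not tested. With 3 libraries a group, small changes such as those of FBL, NPM1 and UBTF change call with 1 library, and levels of OCI-AML3 come from libraries unlike the others.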
